A study of Mus musculus with 16 samples.

Results

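The EGF and neuregulin ligand genes encode the secreted or membrane-anchored growth factors that bind the ErbB receptors. The 10 genes described here are Egf, Tgfa, Areg, Ereg, Btc, Hbegf, Epgn, Nrg1, Nrg2 and Nrg4, chosen by name from 55487 gene identifiers in a table of RNA-seq read counts of mouse mammary organoids. All 10 were found once and passed the low-count filter. The 16 samples are organoids, multicellular structures grown in culture, of 4 genotypes. WT organoids (n = 3) came from normal breast. The mutant organoids came from breast tumors that carry a PIK3CA mutation (n = 4), a HER2 mutation (n = 4) or both, called double mutants here (n = 5). The series title names the alleles HER2 V777L and PIK3CA H1047R. PIK3CA is the catalytic p110-alpha subunit of phosphoinositide 3-kinase, and HER2, called Erbb2 in the mouse, is an ErbB receptor. The labels used here do not give ages, the promoter or Cre that drives a mutation, or whether samples of a genotype came from separate mice, so p-values measure the spread between these samples, which may be technical. Every comparison with WT is also a comparison of tumor with normal tissue, and the 2 cannot be told apart. All organoids were fed 50 ng/ml of murine EGF protein and 10% of medium conditioned with Rspo1 and Noggin. The EGF receptor was thus offered a ligand in every group, WT included.

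ErbB signalling starts when a ligand brings receptors together in pairs. Egf, Tgfa and Areg bind Egfr, the EGF receptor. Btc, Hbegf, Ereg and Epgn bind Egfr and, to differing degrees, Erbb4, and the neuregulins bind Erbb3 or Erbb4. Erbb2 has no known soluble ligand and acts as the partner of the others. Most ligands are made as membrane precursors and are cut free by ADAM proteases, Adam17 foremost. In the mammary gland, amphiregulin (Areg) is the estrogen-induced ligand of ductal growth at puberty, and neuregulin 1 acts in alveolar development.

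Total counts ranged from 45545182 to 64168308 per sample, so 3 counts, taken as the floor of detection, were worth 0.0468 to 0.0659 CPM. CPM, a gene's counts scaled to a common library size, were computed after TMM scaling, a method that aligns libraries on genes that differ little. Erbb2, the gene of the HER2 mutation, had 145 to 188 CPM in WT and PIK3CA mutants, 2696 to 4632 in HER2 mutants and 1499 to 2751 in double mutants. The epithelial marker Epcam had 479 to 699 CPM over all samples. Defining myeloid markers differed between the sources: Ptprc, the CD45 gene, had 8.70 to 43.2 CPM in WT and 0.0369 to 2.73 CPM in the mutants. The summed level of 8 fibroblast markers was 486 to 2925 CPM in WT and 65.4 to 1086 CPM in the mutants, where Fn1, which other cells also express, made up much of it (27.1 to 759 CPM). Against WT 1 of these markers fell in PIK3CA, 2 in HER2 and 6 in double mutants by edgeR. Of all genes 4.52%, 10.4% and 11.8% passed the same test in either direction. Among the 6 markers was Col3a1, which had 36.9 to 313 CPM in WT and 0 to 0.503 CPM in double mutants. In bulk RNA, fewer cells of a type and less RNA per cell cannot be told apart.

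The data showed 3 main patterns. Areg was higher in both genotypes that carry the HER2 mutation, by 4.74-fold in HER2 mutants and 7.65-fold in double mutants against WT. Nrg1 was higher in both genotypes that carry the PIK3CA mutation, by 3.50-fold in PIK3CA mutants and 4-fold in double mutants against WT. Nrg4 was lower in all 3 mutant genotypes, by 2.85-fold to 3.75-fold. Ereg passed the test against WT in double mutants. Egf, Tgfa, Btc, Hbegf, Epgn and Nrg2 did not pass it in any comparison.

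Read by comparison, the ligand genes passed the test as follows. In PIK3CA mutants against WT 2 of 10 passed, Nrg1 higher and Nrg4 lower, where 4.52% of the 24252 genes tested passed in either direction. In HER2 mutants against WT 2 passed, Areg higher and Nrg4 lower, against 10.4% of all genes. In double mutants against WT 4 passed, Areg, Ereg and Nrg1 higher and Nrg4 lower, against 11.8%. The median log2 fold change of the 10 genes in these comparisons was 0.41, 0.77 and 0.76, where that of all genes was -0.03, 0.03 and 0.01. Between mutants, 1 of 10 passed in each comparison. This was Nrg1 in double against HER2 mutants (2.5% of all genes), and Areg in double against PIK3CA mutants (0.672%) and in HER2 against PIK3CA mutants (4.41%). For the interaction it was Nrg4 (1.06%).

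**Figure D1:**
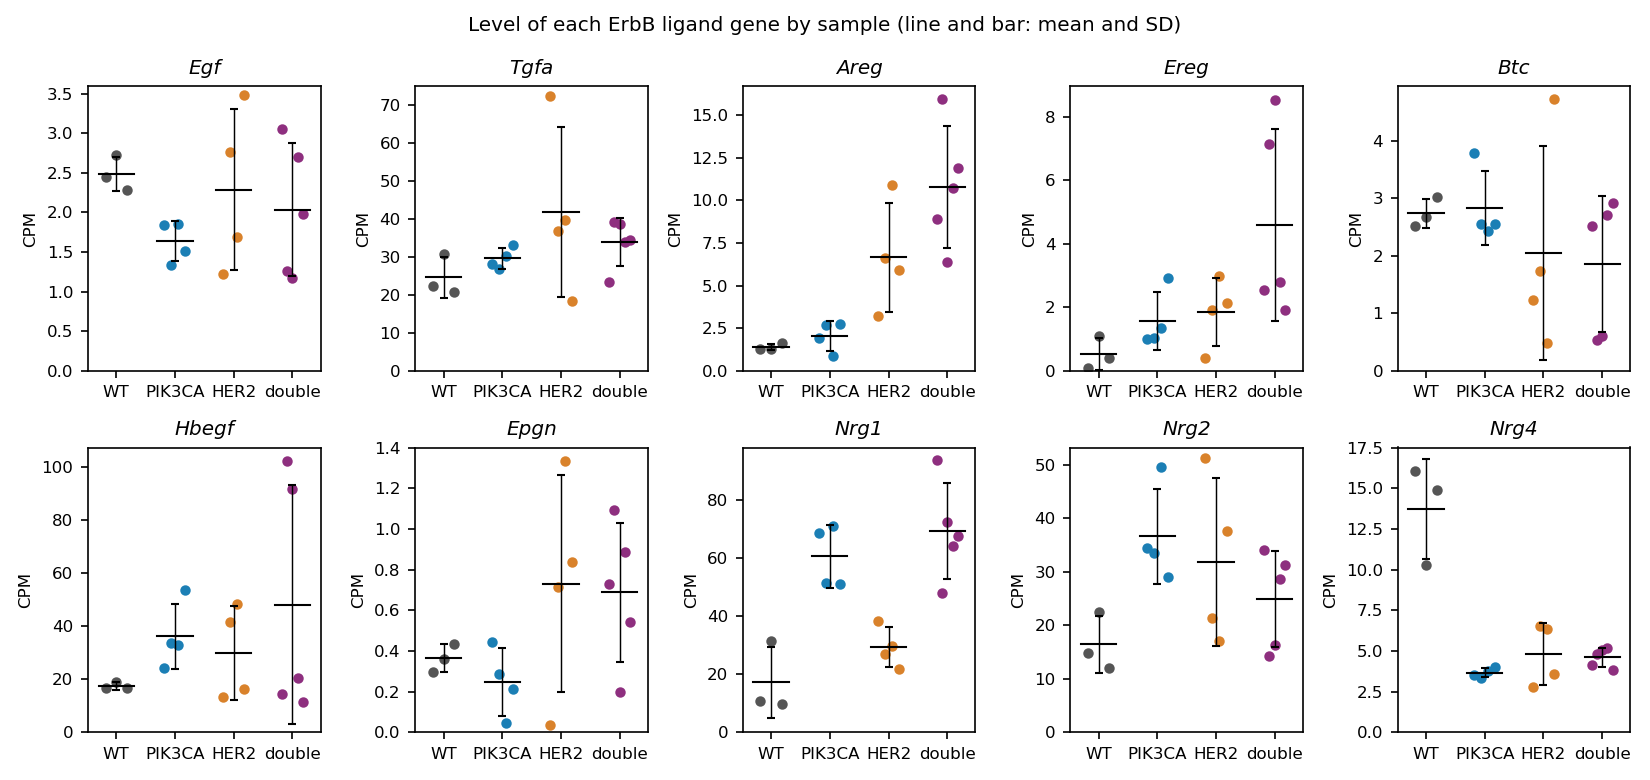
Level of each of the 10 ligand genes (y axis, CPM, from 0, with its own scale in each panel) in WT, PIK3CA mutant, HER2 mutant and double mutant organoids (x axis). Each point is a sample, and the line and bar are the mean and SD. Areg is highest in HER2 and double mutants, Nrg1 in PIK3CA and double mutants, and the 3 WT samples stand above all others for Nrg4.

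The ligand genes are members of one gene family, and 4 of them lie side by side. Epgn, Ereg, Areg and Btc were the only protein-coding genes within 375.5 kb of chromosome 5, from 91027464 to 91402994 in GRCm38 (GENCODE M21). The first 3 are on the plus strand and Btc is on the minus strand. Of these neighbours, Areg and Ereg passed the test in at least 1 comparison and Epgn and Btc did not. RefSeq promoter sequences (GRCm38.p6) matched 6 of the 10 ligand genes. The 250 bases before the start site are shown for Areg, which changed, and for its neighbours Epgn and Btc, which did not pass the test. No record matched Ereg, the other neighbour that passed. Capitals mark the full cAMP response element TGACGTCA, the site bound by CREB factors.
Areg, chr5:91139349-91139598, plus strand: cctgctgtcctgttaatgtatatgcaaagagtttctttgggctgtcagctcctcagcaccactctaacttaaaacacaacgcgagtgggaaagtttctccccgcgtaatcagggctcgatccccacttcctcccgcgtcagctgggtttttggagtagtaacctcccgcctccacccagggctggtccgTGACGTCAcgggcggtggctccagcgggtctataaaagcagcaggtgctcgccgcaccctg
Epgn, chr5:91027267-91027516, plus strand: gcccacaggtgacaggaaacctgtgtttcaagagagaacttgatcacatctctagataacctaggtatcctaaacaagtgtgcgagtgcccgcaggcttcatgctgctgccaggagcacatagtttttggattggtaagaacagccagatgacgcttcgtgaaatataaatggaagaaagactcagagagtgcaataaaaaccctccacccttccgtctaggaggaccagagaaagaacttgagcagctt
Btc, chr5:91402995-91403244, minus strand: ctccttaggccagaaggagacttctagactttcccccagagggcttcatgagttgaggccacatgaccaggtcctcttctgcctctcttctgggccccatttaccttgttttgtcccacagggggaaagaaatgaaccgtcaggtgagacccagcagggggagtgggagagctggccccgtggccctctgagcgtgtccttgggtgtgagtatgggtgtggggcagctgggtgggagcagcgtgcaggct

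Of 32851 RefSeq promoter windows of this length, 1.55% held TGACGTCA on either strand. Among the 6 matched ligand genes, which include Nrg4, lower in all mutants, it was found in Areg alone, with its first base 61 before the start site. The Areg window also held the GC box GGGCGG, 52 bases before the start and found in 32.7% of windows, and TATAAA, 31 bases before it and found in 12.4%. These matches do not overlap each other. TATAAA was also in the Epgn window, 86 bases before the start, and GGGCGG was also in the Tgfa window. The AP-1 site TGANTCA, found in 6.75% of windows, was not in any of the windows of the 6 genes. A match is a description of the letters and shows no binding, and its link to the levels was not tested.

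Areg encodes amphiregulin, an Egfr ligand. The 3 WT samples had 1.29, 1.28 and 1.63 CPM of Areg. The 4 PIK3CA mutants had 1.96, 2.66, 0.864 and 2.75 CPM, which overlaps the WT range. The 4 HER2 mutants had 3.21, 6.61, 10.9 and 5.94 CPM, and the 5 double mutants had 8.88, 15.9, 6.38, 10.7 and 11.9 CPM. All 9 samples with a HER2 mutation were above all 7 without one. Relative to WT its log2 fold change was 2.24 in HER2 mutants (adjusted p 0.00613 by edgeR, SE 0.446) and 2.94 in double mutants (adjusted p 0.000693 by edgeR, SE 0.451). In PIK3CA mutants it was 0.55 (adjusted p 0.570 by edgeR, SE 0.423). Areg was also higher than in PIK3CA mutants, by 1.69 log2 units in HER2 mutants (adjusted p 0.0244 by edgeR, SE 0.392) and by 2.38 in double mutants (adjusted p 0.0148 by edgeR, SE 0.389). Double and HER2 mutants overlapped and differed by 0.69 (adjusted p 0.341 by edgeR, SE 0.364). Both comparisons with WT passed in every fit that left out a sample, and neither with PIK3CA mutants did. For HER2 mutants the edgeR adjusted p was 0.0725, 0.0513 and 0.0631 without PIK3CA replicates 1, 2 and 3 and 0.0591 without HER2 replicate 3. It was 0.0877 with WT and double mutants left out. For double mutants it was 0.0587, 0.0509 and 0.0584 without PIK3CA replicates 1, 2 and 3. In these fits the log2 fold change was 1.35 to 1.82 for HER2 mutants and 2.13 to 2.53 for double mutants. Areg is a known product of hormone-sensing luminal cells. The summed level of 7 markers of these cells was 265 to 335 CPM in WT, 144 to 255 in HER2 mutants and 177 to 395 in double mutants. Against WT none of them passed the test in HER2 mutants. In double mutants 2 passed, Cited1 higher and Esr1 lower. Of all genes 10.4% and 11.8% passed there in either direction. The summed level of 7 alveolar markers was 3526 to 5405 CPM in WT, 9077 to 14029 in PIK3CA, 12438 to 37793 in HER2 and 6062 to 21419 in double mutants. Most of it was Csn3 in WT, PIK3CA and double mutants. None of these markers passed against WT in PIK3CA mutants, and 4 were higher in HER2 and 3 in double mutants. Of all genes 4.52%, 10.4% and 11.8% passed. Csn2 had 1304 to 22709 CPM in HER2 mutants against at most 12.8 CPM in the rest. The part of these luminal cells in the Areg values was not tested.

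Ereg encodes epiregulin, which binds Egfr and Erbb4. WT samples had 0.105, 1.10 and 0.417 CPM, from 6, 55 and 25 counts. PIK3CA mutants had 1.02, 1.03, 1.35 and 2.93 CPM, HER2 mutants 0.415, 1.91, 2.98 and 2.13 CPM, and double mutants 2.54, 7.15, 8.54, 2.79 and 1.93 CPM. Double mutants were all above WT, and replicates 2 and 3 of that genotype stood far above its other samples. The log2 fold change of double mutants against WT was 3.09 (adjusted p 0.0193 by edgeR, SE 0.795). The adjusted p was 0.0817 without WT replicate 1 (log2 fold change 2.60), 0.105 without WT replicate 3 (2.93) and 0.0911 without double mutant replicates 2 and 3 together (2.17), and the log2 fold change was 4.12 without WT replicate 2. Against WT the values were 1.56 in PIK3CA mutants (adjusted p 0.322 by edgeR, SE 0.768) and 1.79 in HER2 mutants (adjusted p 0.158 by edgeR, SE 0.773).

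Nrg1 encodes neuregulin 1, a ligand of Erbb3 and Erbb4, and lies on chromosome 8 (31814551 to 32884029, GRCm38). WT samples had 10.7, 31.5 and 9.81 CPM. PIK3CA mutants had 68.8, 51.4, 71.2 and 51.1 CPM, and double mutants had 93.7, 47.9, 72.5, 64.3 and 67.8 CPM. HER2 mutants had 38.3, 27.2, 29.9 and 21.9 CPM, a range that holds the highest WT sample. All 9 samples with a PIK3CA mutation were above all 7 without one. Relative to WT its log2 fold change was 1.81 in PIK3CA mutants (adjusted p 0.00741 by edgeR, SE 0.358) and 2.0 in double mutants (adjusted p 0.00180 by edgeR, SE 0.353). In HER2 mutants it was 0.76 (adjusted p 0.179 by edgeR, SE 0.345). Double mutants were above HER2 mutants by 1.24 (adjusted p 0.0458 by edgeR, SE 0.306), while HER2 against PIK3CA mutants gave -1.05 (adjusted p 0.0714 by edgeR, SE 0.316).

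The high WT sample, replicate 2, weighs on the Nrg1 values. Without it the log2 fold change was 2.56 in PIK3CA, 1.51 in HER2 and 2.75 in double mutants, and the HER2 value then passed the test (edgeR adjusted p 0.00519). Without WT replicate 3 the PIK3CA value did not pass (1.52, edgeR adjusted p 0.0579). The difference between double and HER2 mutants did not pass in 7 of 9 fits that each left out a sample, those without HER2 replicates 2, 3 or 4 or double mutant replicates 1, 3, 4 or 5 (edgeR adjusted p 0.0579 to 0.0997), with upper-quartile scaling (0.0504) or in a fit of only these genotypes (0.0619). HER2 against PIK3CA mutants passed with DESeq2 (0.0268) and in an edgeR fit of only these genotypes (0.0347). In that comparison 5 of 9 basal and myoepithelial markers were lower by edgeR, where 4.41% of all genes passed in either direction. Sums over the 9 markers were 265 to 974 CPM in HER2 mutants against 525 to 1395 CPM in PIK3CA mutants. In WT replicates 1, 2 and 3, with 10.7, 31.5 and 9.81 CPM of Nrg1, summed basal markers were 901, 1059 and 515 CPM and summed fibroblast markers 486, 2925 and 2388 CPM. Double mutants had sums of 566 to 1041 CPM for basal markers and 174 to 403 CPM for fibroblast markers. PIK3CA replicate 3, with the highest Nrg1 of its group (71.2 CPM), had the lowest basal sum (525 CPM). HER2 replicate 1 was highest of its group in both Nrg1 (38.3 CPM) and the basal sum (974 CPM). The part of basal cells or fibroblasts in the Nrg1 values was not tested.

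Nrg4 encodes neuregulin 4, an Erbb4 ligand known as a product of adipose tissue. It lies on chromosome 9 (55220222 to 55326844, GRCm38). WT samples had 16, 10.3 and 14.9 CPM. PIK3CA mutants had 3.55, 3.37, 3.76 and 4 CPM, HER2 mutants 2.77, 6.57, 6.36 and 3.58 CPM, and double mutants 4.15, 4.80, 5.06, 5.17 and 3.85 CPM. Every WT sample was above every mutant sample. The log2 fold change was -1.90 in PIK3CA mutants (adjusted p 0.00123 by edgeR, SE 0.274), -1.51 in HER2 mutants (adjusted p 0.00351 by edgeR, SE 0.272) and -1.58 in double mutants (adjusted p 0.000978 by edgeR, SE 0.255). These comparisons share the same 3 WT samples.

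The mutants did not differ from each other in Nrg4 past the threshold, with log2 differences of -0.07 to 0.39 between them (edgeR adjusted p 0.432 to 0.928). The interaction is the double mutant change from WT minus both single mutant changes, and for Nrg4 it was 1.84 (adjusted p 0.0250 by edgeR, SE 0.365). Its adjusted p was 0.0743 and 0.0925 without WT replicates 1 and 3, 0.0544 to 0.0650 without any 1 PIK3CA mutant and 0.0525 without double mutant replicate 4, with estimates of 1.71 to 1.88. In a fit of only HER2 mutants and WT, Nrg4 had an adjusted p of 0.0682. Summed myeloid markers were 1056 to 3765 CPM in WT and 240 to 773 CPM in the mutants. By edgeR 8 of 10 fell in PIK3CA, 5 in HER2 and 8 in double mutants, beside 4.52%, 10.4% and 11.8% of all genes. In every mutant sample but HER2 replicate 1, Cd14 made up most of the sum, at 123 to 752 CPM over all mutants, while Lyz2 had 405 to 2649 CPM in WT and 0.0389 to 142 CPM in the mutants. The part of myeloid cells in the Nrg4 values was not tested. The 4 adipocyte markers summed to 0.0369 to 0.984 CPM over all samples, and Adipoq reached 0.1 CPM at most. Nrg4 overlaps Fbxo22, on the opposite strand, in 368 of its 6075 exon bases. Strandedness was not given in the sources used here, so reads in the overlap are uncertain. Fbxo22 had 32.4 to 46.9 CPM in WT and 14.0 to 27.9 CPM in the mutants, and its log2 fold changes, in the order PIK3CA, HER2, double, were -0.90, -0.87 and -0.77 (edgeR adjusted p 0.0156, 0.0130 and 0.0153). Without WT replicate 3 its adjusted p was 0.125, 0.0888 and 0.117.

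**Figure D2:**
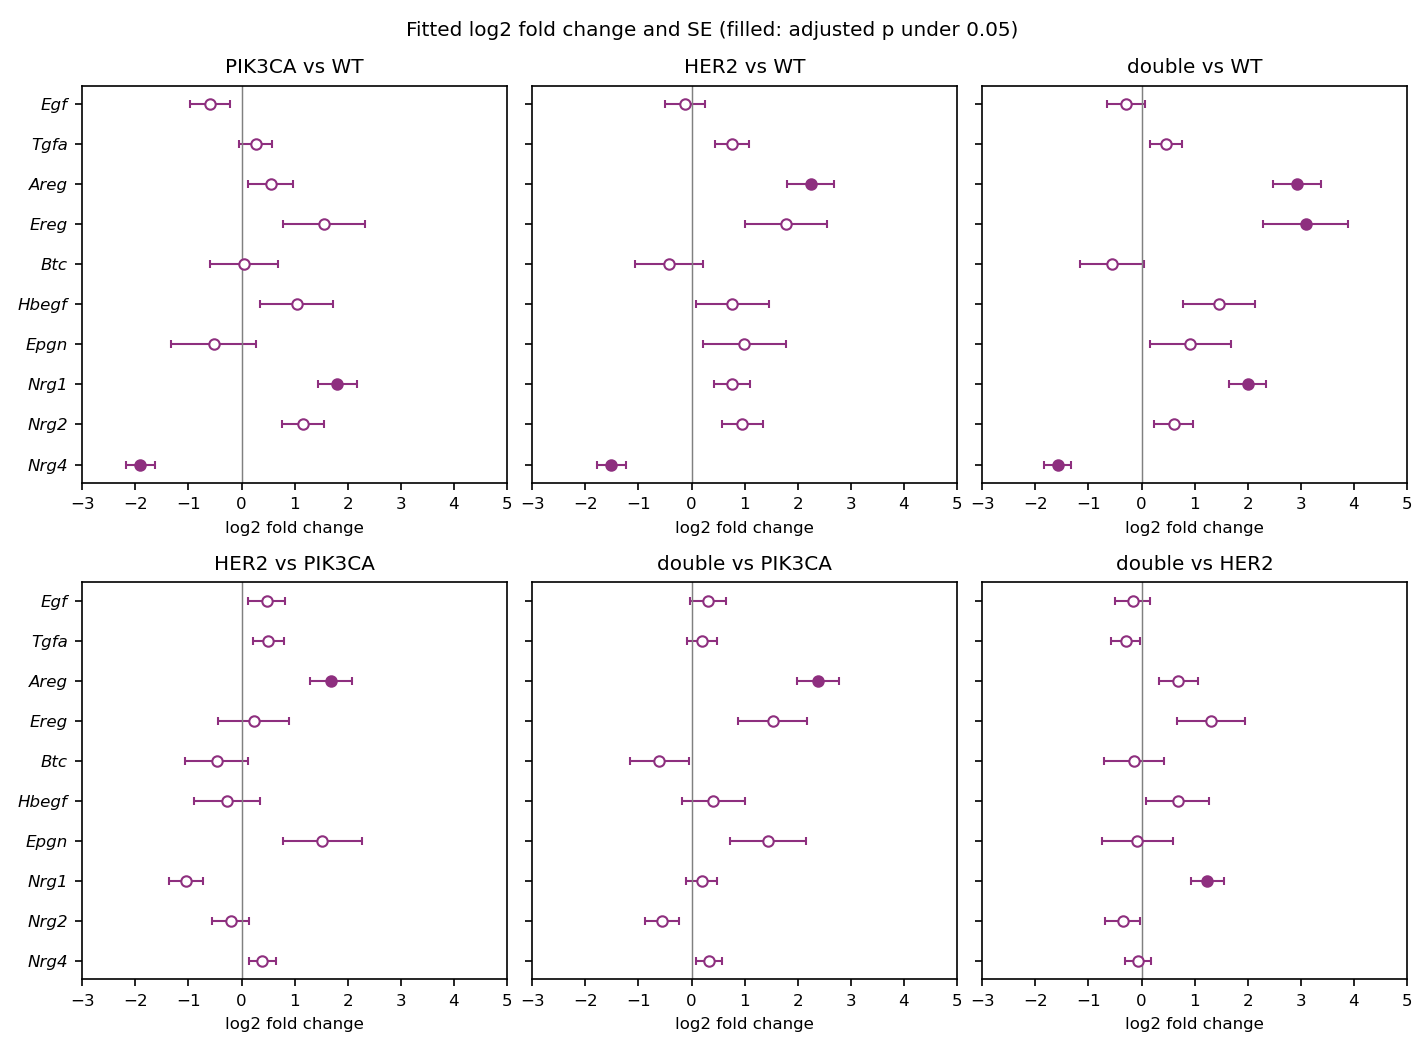
Fitted log2 fold change (x axis) with its SE (bar) for each ligand gene (y axis) in the 6 comparisons of genotypes. Filled points have an edgeR adjusted p under 0.05. Areg, Ereg, Nrg1 and Nrg4 hold all filled points, and of the filled points those of Nrg4 alone lie below 0.

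Hbegf encodes heparin-binding EGF-like growth factor, which binds Egfr and Erbb4 and is known as an immediate response gene. It did not pass the test in any comparison, and its samples split within genotypes. WT samples had 16.8, 19.2 and 16.7 CPM and PIK3CA mutants 24.4, 33.9, 32.9 and 53.6 CPM, so these groups did not overlap. HER2 mutants had 13.4, 41.8, 48.5 and 16.2 CPM, and double mutants 14.5, 103, 91.7, 20.5 and 11.6 CPM. In both genotypes with a HER2 mutation, replicates 2 and 3 stood above the rest. Relative to WT its log2 fold change was 1.04 in PIK3CA mutants (adjusted p 0.496 by edgeR, SE 0.688) and 1.45 in double mutants (adjusted p 0.180 by edgeR, SE 0.679). Without double mutant replicates 2 and 3 together, the double mutant value turned to -0.18. In a fit of only PIK3CA mutants and WT, Hbegf passed the test (edgeR adjusted p 0.0184).

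Nrg2 encodes neuregulin 2, a ligand of Erbb3 and Erbb4. WT samples had 14.8, 22.4 and 12.1 CPM, and PIK3CA mutants, all above them, had 34.5, 33.5, 49.5 and 29.1 CPM. HER2 mutants had 51.2, 21.4, 17.1 and 37.6 CPM and double mutants 34.1, 14.3, 16.4, 28.6 and 31.2 CPM. Here replicates 2 and 3 of both genotypes were the low ones. The log2 fold change of PIK3CA mutants against WT was 1.16 (adjusted p 0.115 by edgeR, SE 0.387). It passed the test with DESeq2 (adjusted p 0.0452) and in an edgeR fit of only these genotypes (adjusted p 0.0142).

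Tgfa encodes transforming growth factor alpha, an Egfr ligand. It ranged from 20.6 to 30.7 CPM in WT, 26.8 to 33.0 in PIK3CA mutants, 18.5 to 72.2 in HER2 mutants and 23.3 to 39.1 in double mutants. In HER2 mutants it had its largest log2 fold change from WT, 0.77 (adjusted p 0.145 by edgeR, SE 0.320). Without HER2 replicate 1, the highest of its group, it was 0.36, and without HER2 replicate 4, the lowest, it passed the test (edgeR adjusted p 0.0217).

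Egf, Btc and Epgn were expressed at low levels. Egf encodes the factor that was also supplied as protein in the medium. It had 2.29 to 2.72 CPM in WT, 1.34 to 1.86 in PIK3CA mutants, 1.23 to 3.48 in HER2 mutants and 1.18 to 3.05 in double mutants. PIK3CA mutants lay below all WT samples, but their log2 fold change, -0.60, did not pass the test (adjusted p 0.464 by edgeR, SE 0.373). Btc encodes betacellulin. It had 2.52 to 3.02 CPM in WT, 2.44 to 3.78 in PIK3CA mutants, 0.490 to 4.73 in HER2 mutants and 0.545 to 2.92 in double mutants, and its log2 fold changes against WT were 0.05, -0.42 and -0.56 in that order of mutants (edgeR adjusted p 0.603 to 0.981). The HER2 value was -1.25 without HER2 replicate 4 and -0.10 without HER2 replicate 3, and the double mutant value was -0.01 without double mutant replicates 2 and 3 together. Epgn, which encodes epigen, had 0.0377 to 1.34 CPM. Its 2 counts in PIK3CA replicate 3 and in HER2 replicate 1 were under the floor of 3, so no difference could be resolved there. Nrg3, the neuregulin gene outside the 10, had 0 to 8 counts per sample, did not pass the filter and was not tested.

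Within the HER2 and double mutants, several ligands were high or low in the same samples. In double mutants, replicates 2 and 3 had the highest Hbegf and Ereg and the lowest Nrg2, Btc and Egf of the genotype. For Btc these samples had 0.545 and 0.609 CPM, against 2.52, 2.72 and 2.92 CPM in replicates 1, 4 and 5. For Egf they had 1.26 and 1.18 CPM, against 3.05, 2.70 and 1.98 CPM. In HER2 mutants, replicates 2 and 3 likewise had the highest Hbegf and the lowest Nrg2, but Egf and Btc did not follow: Egf was 2.76 CPM in replicate 2 and Btc was lowest in replicate 3 and highest in replicate 4. The labels name no batch for these samples. Both replicates 2 and 3 of the double mutant had Erbb2 at 2751 and 2705 CPM, above the 1499 to 1649 CPM of its other samples. In HER2 mutants Erbb2 did not follow: replicate 2 had the lowest level (2696 CPM) and replicate 3 the highest (4632 CPM). The link of Erbb2 to the ligand levels was not tested.

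**Figure D3:**
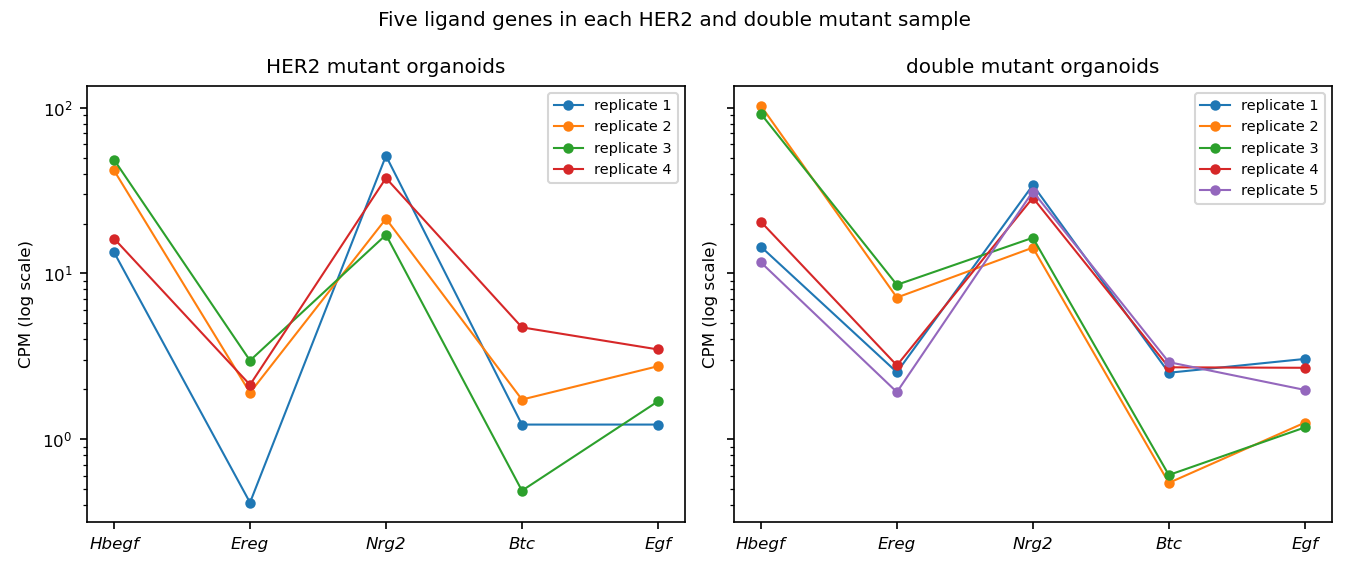
Level of 5 ligand genes (y axis, CPM, log scale; genes on the x axis) in each HER2 mutant and double mutant sample, 1 line per sample. In double mutants, replicates 2 and 3 lie above the others for Hbegf and Ereg and below them for Nrg2, Btc and Egf.

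To compare ligands with each other, CPM were divided by the exon length of each gene in kb (GENCODE M21). On this scale the order of mean levels in WT was Nrg2 (5.23 CPM per kb), Tgfa (3.79), Hbegf (3.64), Nrg4 (2.26), Nrg1 (1.67), Areg (1.15), Btc (0.606), Egf (0.220), Epgn (0.201) and Ereg (0.131). Neighbours in that order overlapped in range, except Hbegf over Nrg4, Areg over Btc and Btc over Egf. In double mutants the leading 5 were Hbegf (9.97 CPM per kb), Areg (8.86), Nrg2 (7.94), Nrg1 (6.69) and Tgfa (5.22), each overlapping the next. Hbegf led this order through replicates 2 and 3, at 21.2 and 19.0 CPM per kb. In replicates 1, 4 and 5 it was at 2.41 to 4.24 CPM per kb, below Areg, Nrg2, Nrg1 and Tgfa. By mean level Areg had rank 6 in WT, rank 5 in PIK3CA mutants (1.69 CPM per kb), rank 4 in HER2 mutants (5.48 CPM per kb) and rank 2 in double mutants. Nrg4 had rank 4 in WT, rank 7 in PIK3CA mutants (0.604 CPM per kb), rank 6 in HER2 mutants (0.794 CPM per kb) and rank 7 in double mutants (0.759 CPM per kb).

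The sum over the 10 genes was 16.4 to 22.9 CPM per kb in WT, 30.6 to 36.5 in PIK3CA mutants, 28.1 to 37.5 in HER2 mutants and 36.2 to 52.9 in double mutants. Its makeup differed too. Areg held 6.31% ± 1.80 of the sum in WT (SD, n = 3) and 5.21% ± 2.32 in PIK3CA mutants (SD, n = 4). With the HER2 mutation its share was 16.6% ± 7.27 in HER2 mutants (SD, n = 4) and 21.5% ± 6.13 where both mutations were present (SD, n = 5). Nrg1 held 8.33% ± 4.26 in WT (SD, n = 3) and 8.41% ± 1.02 in HER2 mutants (SD, n = 4). With the PIK3CA mutation its share was 17.7% ± 3.23 in PIK3CA mutants (SD, n = 4) and 16.8% ± 5.79 where both were present (SD, n = 5). Nrg4 held 12.5% ± 4.46 in WT (SD, n = 3) and mean shares of 1.82% to 2.40% in the mutants. These sums and shares are descriptions and were not tested.

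**Figure D4:**
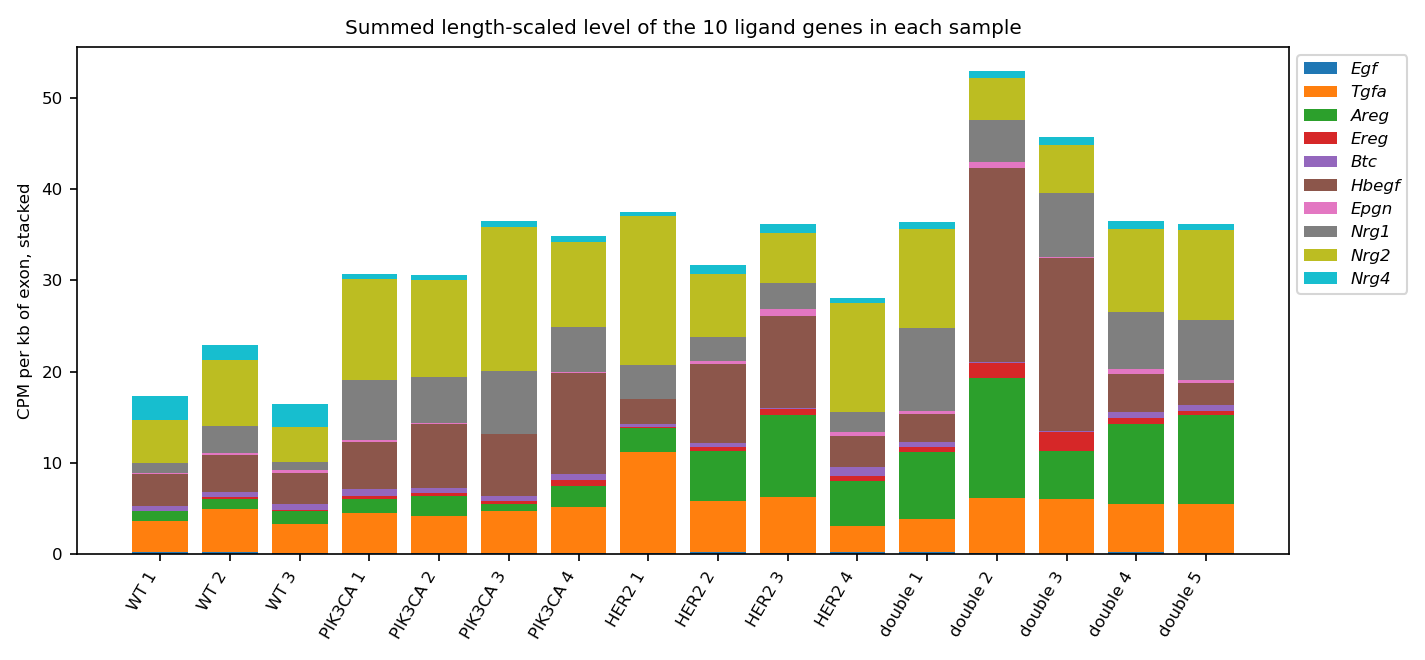
Summed level of the 10 ligand genes in each sample (y axis, CPM per kb of exon, stacked by gene; samples on the x axis). The WT samples sum to 16.4 to 22.9 and the mutants to 28.1 to 52.9, with the Hbegf block widest in double mutant replicates 2 and 3.

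The receptors for these ligands changed as well. Erbb4, which neuregulins and several Egfr ligands bind, had 26.3, 4.90 and 24.2 CPM in WT, 0.811 to 5.14 in PIK3CA mutants, 0.0223 to 2.64 in HER2 mutants and 0.0393 to 0.369 in double mutants, with a log2 fold change of -6.87 in double mutants against WT (adjusted p 0.000667 by edgeR, SE 1.05). Double mutants had 2 to 20 counts of Erbb4 and HER2 replicate 3 had 1, so the size of the fall is uncertain near the floor of 3. Erbb3, the other neuregulin receptor, had 247 to 317 CPM in WT, 302 to 326 in PIK3CA mutants, 169 to 244 in HER2 mutants and 128 to 162 in double mutants, with a log2 fold change of -1.04 in double mutants against WT (adjusted p 0.000208 by edgeR, SE 0.128). Egfr had 155 to 187 CPM in WT and was lower in HER2 mutants, at 99.8 to 135 CPM (log2 fold change -0.57, SE 0.131, edgeR adjusted p 0.0130), but not past the threshold in double mutants, at 152 to 200 CPM (-0.02, SE 0.126, edgeR adjusted p 0.928). In HER2 mutants Egfr did not pass without WT replicate 1 (adjusted p 0.0608), without WT replicate 2 (0.0506) or in a fit of only HER2 mutants and WT (0.106).

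Genes that process the ligands were examined as a list of 14 sheddases, rhomboid proteins and their regulators, all tested. In PIK3CA mutants against WT 1 of them passed, in HER2 mutants 2 and in double mutants 4, where 4.52%, 10.4% and 11.8% of all genes passed. In the double mutants Rhbdl2, a rhomboid protease, was higher, and the membrane metalloproteases Adam8, Adam15 and Adam19 were lower. Adam8 had 17.2 to 60.9 CPM in WT, 1.77 to 5.54 in PIK3CA mutants, 7.10 to 19.0 in HER2 mutants and 3.10 to 12.6 in double mutants. Its log2 fold change was -3.24 in PIK3CA mutants (adjusted p 0.00251 by edgeR, SE 0.540) and -2.15 in double mutants (adjusted p 0.00891 by edgeR, SE 0.486), the latter -1.41 without WT replicate 3 (adjusted p 0.122). Without WT replicate 3, Adam15 and Rhbdl2 did not pass in double mutants either (adjusted p 0.0866 and 0.166), and without double mutant replicates 2 and 3 together Adam19 did not (0.0596). Rhbdl2 did not pass in 6 of 8 fits that each left out a sample, those without WT replicates 1 or 3 or double mutant replicates 1, 3, 4 or 5 (edgeR adjusted p 0.0503 to 0.166). Adam8 is also known as a gene of myeloid cells, whose markers were higher in WT as given above. The part of myeloid cells in the Adam8 values was not tested. Rhbdf2, the iRhom2 gene that carries Adam17 to the cell surface, was higher by 0.96 in HER2 mutants (adjusted p 0.0177 by edgeR, SE 0.233), but did not pass without any 1 WT sample (0.0504 to 0.0880). The list's median log2 fold changes in the same order were 0.04, -0.09 and 0.09, against the medians of all genes given above.

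Of 17 genes of ErbB feedback and attenuation, 1 passed against WT in PIK3CA mutants, 4 in HER2 mutants, of which 2 were higher, and 4 in double mutants, of which 3 were higher, where 4.52%, 10.4% and 11.8% of all genes passed. Without WT replicate 3 none of the 4 passed in double mutants, with an edgeR adjusted p of 0.0582 for Dusp5, 0.0660 for Lrig3, 0.163 for Dusp4 and 0.168 for Socs5. The genes of the ERK phosphatases Dusp4 and Dusp5 rose together in HER2 mutants. The log2 fold change there was 0.84 for Dusp4 (adjusted p 0.00411 by edgeR, SE 0.155) and 1.87 for Dusp5 (adjusted p 0.0128 by edgeR, SE 0.427), Dusp5 not passing without WT replicate 3 (0.0801) or in a fit of only these genotypes (0.0577). In double mutants Dusp5 had 1.90 (adjusted p 0.00734 by edgeR, SE 0.417). Lrig3, of a family of ErbB regulators, fell in HER2 mutants, with a log2 fold change of -1.14 (adjusted p 0.00159 by edgeR, SE 0.177). Socs5, a suppressor of cytokine signalling, rose in PIK3CA mutants by 0.80 (adjusted p 0.00311 by edgeR, SE 0.139).

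Of 17 adaptor and signal genes downstream of the receptors, 1 passed in PIK3CA, 2 in HER2 and 3 in double mutants against WT, again beside 4.52%, 10.4% and 11.8% of all genes. Gab1, a docking protein between receptors and phosphoinositide 3-kinase, changed by -0.91 on the log2 scale in HER2 mutants (adjusted p 0.000735 by edgeR, SE 0.124) and -0.67 in double mutants (adjusted p 0.00162 by edgeR, SE 0.117). Grb7, an ErbB adaptor encoded next to Erbb2, had -1.25 in double mutants (adjusted p 0.000208 by edgeR, SE 0.153). These 3 calls held in every alternative.

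Of 10 transcription regulators and hormone receptors linked to mammary ligand genes, 2 passed in PIK3CA mutants, 1 in HER2 mutants and 2 in double mutants, beside the same shares of all genes. Tead1, a DNA-binding partner of Yap1, was higher in double mutants by 1.59 (adjusted p 0.00449 by edgeR, SE 0.322). Esr1 is the estrogen receptor gene, upstream of Areg at puberty. Its log2 fold change was -0.95 in double mutants (adjusted p 0.0119 by edgeR, SE 0.226), though without WT replicate 2 the adjusted p was 0.0703. In HER2 mutants it was -0.63 (adjusted p 0.105 by edgeR, SE 0.239). The part of estrogen signalling in the Areg values was not tested. The PIK3CA values of Tead1 and Esr1 and the HER2 value of Tead1 passed by small margins (edgeR adjusted p 0.0349 to 0.0499). Without any 1 WT or PIK3CA sample neither gene passed in PIK3CA mutants (edgeR adjusted p 0.0525 to 0.227).

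Genes most like each ligand were ranked by the root mean square difference of log2 CPM, each centred on its own mean, over the 16 samples and 11744 candidate genes. The closest match relative to its own spread was that of Hbegf, whose spread about its mean was 0.94 log2 units and whose nearest genes were Ndrg1 (0.28), Maff (0.30) and Fstl3 (0.34). Btc, with a spread of 0.94, was nearest to Cadps2 (0.38), Fam120c (0.40) and Arsk (0.45). Nrg2, with a spread of 0.62, was nearest to Ano1 (0.27), Rhoj (0.28) and Farp2 (0.28), and Nrg4, with 0.73, to Timp2 (0.32) and Enc1 (0.33). Nrg1, with 0.93, was nearest to Galnt18 (0.43), Slco2a1 (0.44) and Col16a1 (0.44). Egf, with 0.48, was nearest to Dync2li1 (0.22), Abhd10 (0.24) and Mettl17 (0.25), and Tgfa, with 0.45, to Tk1 (0.22), Tmc8 (0.23) and Inafm2 (0.24). For Areg, with 1.28, Snhg15 (0.73) and Sh2d5 (0.73) were among the nearest. Ereg, with 1.45, was nearest to Pak3 (0.68), Inhba (0.77) and Anln (0.79). Epgn, with 1.18 and few counts, was nearest to Slc7a11, Sfmbt2 and Rgs2 (0.85 to 0.86). These ranks are descriptions over the same 16 libraries.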

How the data were processed

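The deposited table holds raw read counts per gene, which are whole numbers, for 16 bulk RNA libraries of 4 genotypes. Per the submitters' processing notes, the tools were bcl2fastq 2.20, STAR 2.0.4b, Subread featureCounts 1.4.5 and DESeq2 1.33.5, on mm10. Annotation and strandedness were not given in the sources used here. A deposited normalized table was not used here. Of 55774 rows, 287 repeated an identifier and were dropped.

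Counts passing filterByExpr (24252 genes) were scaled by TMM and tested with edgeR 4.0.16 in R 4.3.3 by its two-sided quasi-likelihood test. All 16 libraries entered 1 model that had no term besides genotype. Benjamini-Hochberg adjustment ran over all genes tested, separately for each comparison, and the threshold was 0.05. The SE is the absolute log2 fold change over the square root of F. Log2 CPM used a prior count of 2. The procedure was tested on simulated data. Alternatives were DESeq2 1.42.0, other scalings, no filter, a replicate block, fits of only the genotypes compared and leaving out samples. Leaving out double mutant replicates 2 and 3 together was chosen after seeing the data.

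The ligand genes and lists were chosen with earlier results of these data known. Named were all ligands and receptors, at most 4 genes with the smallest adjusted p of each pathway list, and the 3 genes nearest to each ligand, of which 2 are not reported here. Rhbdl2 and Cited1 were named after their values were seen, and Fbxo22 for its overlap with Nrg4.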

Additional observations from a re-analysis of the deposited data

Results flagged for a closer look

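In 42 groups of 4 or 5 samples of the ligand and receptor genes, 1 sample lay far from the rest of its group by Dixon's criterion, which chance flags in about 1 of 20 groups. This was Btc in PIK3CA mutant replicate 1, at 3.78 CPM against 2.44 to 2.56 CPM in the other PIK3CA mutants.

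For Nrg4 the interaction passed the test, with a log2 estimate of 1.84 (edgeR adjusted p 0.0250). It sets -1.90 in PIK3CA mutants against WT beside -0.07 in double against HER2 mutants. It did not pass in 7 of 16 fits that each left out a sample. All 3 WT samples were above all mutants, and the estimate includes them. Only the first of these comparisons sets tumor against normal tissue. A PIK3CA change that depends on HER2 and a drop shared by all tumors cannot be told apart here.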

How the results depend on the processing

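Of 1090 values of the ligand genes under alternatives, 1050 kept their side of the threshold, 33 lost it, 7 gained it and 0 reversed a call. Of 2289 values of the other named genes, 176 lost it, 36 gained it and 0 reversed a call. Areg, Nrg1 and Nrg4 against WT in double mutants, Areg in HER2 mutants and Nrg4 in PIK3CA mutants passed under every alternative run. The cause of the changes below was not tested.

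With DESeq2 the genes called were 1869 (edgeR 1096) for PIK3CA mutants against WT, 1715 (606) for double against HER2 mutants, 661 (163) for double against PIK3CA mutants, 2219 (1069) for HER2 against PIK3CA mutants and 966 (257) for the interaction, and the ligand genes called for HER2 against PIK3CA mutants were 2. Fits of only the genotypes compared called 4136 genes for PIK3CA mutants against WT, 541 (2518) for HER2 mutants against WT, 37 for double against HER2 mutants, 364 for double against PIK3CA mutants and 534 for HER2 against PIK3CA mutants. They called 4, 1 and 0 ligand genes in the first 3 of these, and for HER2 against PIK3CA mutants Nrg1, lower, in place of Areg. Upper-quartile scaling called 0 ligand genes for double against HER2 mutants, 1 at an unadjusted p under 0.05, and put 30.2% of all called genes there on the higher side in place of 41.1%. Without double mutant replicates 2 and 3, 1125 genes were called against HER2 mutants and 998 for the interaction.

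Leaving out 1 sample gave 396 to 1043 genes and 1 to 2 ligand genes for PIK3CA mutants against WT, 733 to 2693 and 2 to 3 for HER2 mutants, and 1173 to 2961 and 3 to 4 for double mutants. It gave 256 to 975 genes and 0 to 1 ligand genes for double against HER2 mutants, 17 to 143 and 0 to 1 for double against PIK3CA mutants, 427 to 1166 and 0 to 1 for HER2 against PIK3CA mutants, and 54 to 382 and 0 to 1 for the interaction.

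The replicate numbers were not taken to pair the samples. Between HER2 and double mutants, deviations from the group means of same-numbered samples correlated at 0.0711 to 0.273, with 4 of 8 samples correlating best with their own number, and at most 2 did so in any other pair of genotypes. With the replicate block, 1625 genes were called for HER2 mutants against WT, 118 for double against HER2 mutants, 19 for double against PIK3CA mutants, 552 for HER2 against PIK3CA mutants and 35 for the interaction. In the last 4 of these edgeR called 0 ligand genes with the block, with 2, 3, 2 and 2 at an unadjusted p under 0.05. Under the block the adjusted p of Areg was 0.0812 in double and 0.0625 in HER2 against PIK3CA mutants, that of Nrg1 was 0.132 in double against HER2 mutants and that of the Nrg4 interaction was 0.0828.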

Other observations

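Double mutant replicates 2 and 3, the samples with high Hbegf and Ereg, also stood apart in some epithelial genes, chosen here after their values were seen. Cldn4, a tight junction gene of luminal cells, had 568 and 209.9 CPM in them and 54.9, 80.6 and 66.8 CPM in replicates 1, 4 and 5. Prlr, the prolactin receptor gene, had 82.8 and 67.7 CPM against 177, 153 and 161 CPM. Prlr is a marker of hormone-sensing luminal cells, and other such markers were mixed. Cited1 was also lowest in replicates 2 and 3, at 0.503 and 2.16 CPM. Pgr was lowest of the genotype in replicate 2 (0.273 CPM) and highest in replicate 3 (42.6 CPM). Foxa1 was lowest in replicate 2 (10.1 CPM), while replicate 3 (62.1 CPM) lay within the range of replicates 1, 4 and 5. In HER2 mutants, Cldn4 was highest in replicates 2 and 3, with 359 and 398 CPM against 103 and 183 CPM in replicates 1 and 4.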
